A study of Mus musculus with 12 samples.

Results

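The m6A writer genes examined here were *Mettl3*, *Mettl14*, *Mettl16*, *Wtap*, *Virma*, *Zc3h13*, *Rbm15*, *Rbm15b* and *Cbll1*. They were taken by gene name from 3 deposited tables of a MeRIP-seq study of mouse hippocampus. These were the m6A peaks of WT mice, the m6A peaks of *Tyrobp*-/- mice, and the peak caller's comparison of both genotypes. Of these 9 genes, 8 had at least 1 peak in each genotype, among 17744 genes with a peak in either. They held 23 of 33622 WT peaks, 22 of 34935 *Tyrobp*-/- peaks and 5 of 5640 peaks in the genotype comparison. *Mettl3* had no peak in any of the 3 tables.

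MeRIP-seq pulls down RNA fragments with an antibody against m6A (the IP library) and sequences them beside the same RNA without the pull-down (the input library). The WT mice were littermates of the *Tyrobp*-/- mice. All were 6-month-old C57BL/6 males, and the *Tyrobp*-/- mice carried a germline deletion of 10 bases in exon 2 of *Tyrobp*, made with TALENs. *Tyrobp* encodes an adaptor of microglial surface receptors, and the deletion is present in every cell, not in microglia alone. Each genotype had 3 samples, each sample pooled the RNA of 3 mice, and each gave an IP and an input library of poly(A) RNA. Valid reads numbered 61189368 in the shallowest of the 12 libraries and 73554506 in the deepest. The peak lists give 1 value for each peak and genotype, over its 3 samples together, with no error between samples. Reads per gene or per peak were not analysed here, so the depth behind a single value is unknown.

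m6A is the most common internal modification of eukaryotic mRNA. METTL3 is the catalytic subunit of the nuclear writer, and METTL14 is its partner that helps to bind RNA. WTAP anchors this pair and joins it to VIRMA, ZC3H13, CBLL1 (also called HAKAI) and the RNA-binding proteins RBM15 and RBM15B, which together steer methylation towards chosen sites, many of them near stop codons and in 3′ UTRs. METTL16 is a separate m6A methyltransferase that acts on the U6 snRNA and on the *Mat2a* mRNA. The transcripts that encode writers can carry m6A themselves, and the peaks below are on those transcripts. They do not measure the amount of the writer proteins or their activity.

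The lists were searched for genes that mark hippocampal neurons, of which 5 of 6 had a peak in both genotypes (*Spink8* had none). Of the markers of other cells, 2 of 5 hypothalamic genes (*Oxt* and *Trh*) had a peak in WT mice and 0 of 5 in *Tyrobp*-/- mice. Of the choroid plexus genes, 1 of 3 (*Kl*) had a peak in both, and 3 of 5 microglial genes did, with none in *Tyrobp* or *Trem2*. A peak is not an expression level, so these counts do not check the tissue label or measure how much of another tissue a sample held. Because *Tyrobp* had no peak in either genotype, the lists do not check the genotype labels either. The part of cell makeup in the differences given below was not tested.

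Most writer peaks were present in both genotypes, as were most peaks of all genes. The mean number of peaks rests on only 8 writer genes, leaves out *Mettl3* and counts overlapping peaks separately. The 8 genes with a peak had 2.88 peaks each in WT and 2.75 in *Tyrobp*-/- mice on average, against 2.13 and 2.16 over all genes with a peak. A counterpart, meaning an overlap of at least 1 bp with a peak of the other genotype, was found for 20 of 23 WT peaks, beside 80.0% of all WT peaks. It was found for 21 of 22 *Tyrobp*-/- peaks, beside 77.9% of all of them. Among peaks that carried the name of a writer gene, those without a counterpart all lay below the median enrichment of their list (5.54 in WT and 5.72 in *Tyrobp*-/- mice). In WT mice they were 1 peak in *Mettl16* and 2 in *Rbm15*, with fold enrichments of IP over input between 1.93 and 4.39, and in *Tyrobp*-/- mice the 1 such peak, in *Virma*, had a fold enrichment of 1.97.

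Most writer peaks were labelled 3′ UTR by the annotation deposited with them. Each peak carries a single label, and several of these peaks join exonic parts across introns. The label therefore does not place every part of a peak in a 3′ UTR. The share was 15 of 23 (65.2%) in WT mice and 13 of 22 (59.1%) in *Tyrobp*-/- mice, beside 47.2% and 49.3% of all peaks. A further 3 peaks in each genotype were placed in 5′ UTRs (beside 18.9% and 17.3% of all peaks). The remaining peaks were in coding or other exons, among them 1 in the first exon of *Rbm15* in each genotype. Some listed peaks share reads. The 2 *Cbll1* peaks overlap each other, as do 2 of the 3 *Rbm15b* peaks, so the 23 and 22 peaks make up 21 and 20 separate regions.

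**Figure D1:**
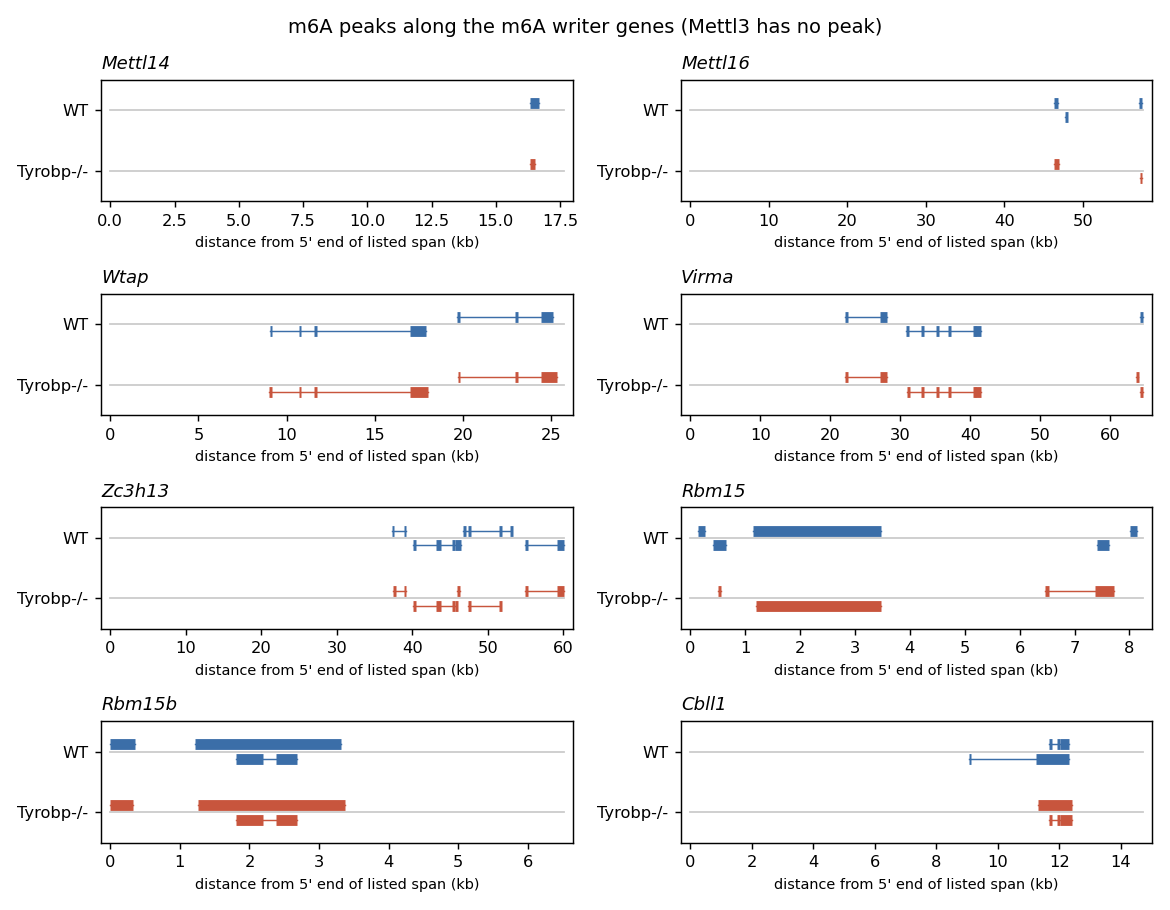
Positions of the m6A peaks along 8 writer genes, with the distance from the 5′ end of the listed transcripts in kb on the horizontal axis, WT peaks in blue and *Tyrobp*-/- peaks in red; thick segments are the exonic parts of a peak, thin lines join parts across introns, and small vertical steps only separate neighbouring peaks. Most peaks (20 of 23 in WT mice, beside 80.0% of all WT peaks) overlap a peak of the other genotype by at least 1 bp. *Mettl3*, which had no peak, is not drawn.

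The catalytic subunit *Mettl3* (RefSeq position chr14:52294841-52308741 on the minus strand, GRCm38) was listed without a peak in WT and *Tyrobp*-/- mice. Peaks did lie over the last bases of its span, but they carried the name of *Tox4*, the neighbouring gene that ends there on the opposite strand. The WT list had these at chr14:52294903-52295023 (fold enrichment 1.80) and chr14:52294871-52295020 (2.14), and the *Tyrobp*-/- list at chr14:52294873-52295083 (1.84) and chr14:52294871-52295080 (2.39). Whether the caller used the strand of the reads is not given in the sources used here, so reads of *Mettl3* and *Tox4* cannot be told apart at these positions. A gene without a peak may be unmethylated, too weakly expressed or under the caller's threshold, which cannot be told apart from these lists.

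*Mettl14* (ENSMUSG00000028114, minus strand) had a single peak, in its 3′ UTR, and this peak was weaker and shorter in *Tyrobp*-/- mice. In WT mice it covered chr3:123369254-123369613 (360 bp) with a fold enrichment of 4.23, below the median of all WT peaks (5.54). In *Tyrobp*-/- mice it covered the 210 bp of chr3:123369404-123369613 with a fold enrichment of 2.67. The log10 of the peak-calling p, which compares IP with input, was -35.5 in WT and -13.5 in *Tyrobp*-/- mice. The log2 ratio of the fold enrichments, *Tyrobp*-/- over WT, was -0.66.

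*Mettl16* (ENSMUSG00000010554, plus strand), the methyltransferase of U6 and *Mat2a* RNA, also had lower values in *Tyrobp*-/- mice at both peaks found in each genotype. At the peak in WT chr11:74817167-74817706 the fold enrichment was 5.17, and at its counterpart chr11:74817196-74817736 in *Tyrobp*-/- mice it was 3.59. At the peak 120 bp before the end of the annotated transcript, WT chr11:74827956-74828405, it was 3.66 against 2.65. The log2 ratios were -0.53 and -0.47. All its peaks were annotated to the 3′ UTR. The last of them lies beyond the end of the RefSeq gene (74826855), inside a longer Ensembl transcript. One more WT peak, at chr11:74818575-74818665 (91 bp), had a fold enrichment of 1.93 and no counterpart in *Tyrobp*-/- mice.

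The anchor *Wtap* (ENSMUSG00000060475, chromosome 17, minus strand) gave nearly the same values in both genotypes. The more 3′ peak, WT chr17:12967394-12972828, had a fold enrichment of 6.70 in WT and 7.42 in *Tyrobp*-/- mice. The more 5′ peak, WT chr17:12974622-12983463, which joins 4 exonic parts, had 6.15 in WT and 6.25 in *Tyrobp*-/- mice. Their log2 ratios were 0.15 and 0.02. The more 5′ region received different labels, a 3′ UTR in WT (ENSMUST00000159551) and a 5′ UTR in *Tyrobp*-/- mice (ENSMUST00000159104), although its bounds differ by only 120 bp at one end and 30 bp at the other. The label changed with the transcript chosen for annotation, and the position hardly changed.

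*Virma* (ENSMUSG00000040720, chromosome 4, plus strand) encodes the largest scaffold protein of the complex, and had 3 peaks in both genotypes and a weak additional one in *Tyrobp*-/- mice. The most 5′ peak, WT chr4:11508055-11514132, starts in an internal exon and had a fold enrichment of 6.49 in WT and 7.55 in *Tyrobp*-/- mice. The next, WT chr4:11516852-11527536, had 9.80 against 8.33, covers 6 exonic parts and ends 85 bp before the end of a short transcript (ENSMUST00000055372). The third, WT chr4:11550234-11550654, lies 30 bp from the end of the long transcript (ENSMUST00000059914), with 7.25 against 8.09. *Virma* thus had a peak at the 3′ end of each of its listed transcripts, and the log2 ratios of the 3 peaks were of both signs (0.22, -0.23 and 0.16). The *Tyrobp*-/- list alone held a peak slightly upstream of the last one, at chr4:11549664-11549874 (211 bp, fold enrichment 1.97).

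*Zc3h13* (ENSMUSG00000022000, chromosome 14, plus strand), a zinc finger protein that holds WTAP, VIRMA and CBLL1 in the nucleus, was covered by a chain of peaks over exons towards its 3′ end, 4 in WT and 5 in *Tyrobp*-/- mice. The most 5′ peak, WT chr14:75321637-75323585, had a fold enrichment of 5.56 against 5.47. The second, WT chr14:75324511-75330796, had 7.54 and met 2 peaks in *Tyrobp*-/- mice, a main one of 7.58 and a 360-bp fragment at chr14:75330347-75330706 of 1.98. The log2 ratio was 0.01 to the main peak and -1.93 to the fragment, with a mean of -0.96. The third, WT chr14:75331125-75337467, had 5.81 against 5.47. The fourth reached the last base of the transcript (WT chr14:75339348-75344426, 3′ UTR) and had 6.64 against 9.43, the highest log2 ratio of any writer peak (0.51). The exonic length under *Zc3h13* peaks was 4014 bp in WT and 3086 bp in *Tyrobp*-/- mice, and all 3086 bp lay within the WT peaks.

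*Cbll1* (ENSMUSG00000020659, chromosome 12, minus strand) encodes the E3 ubiquitin ligase HAKAI, a stabilizing member of the complex. Its 2 overlapping WT peaks, chr12:31487251-31487889 and chr12:31487251-31490510, both had a fold enrichment of 8.45. The 2 overlapping *Tyrobp*-/- peaks, chr12:31487163-31487889 and chr12:31487161-31488267, had 9.81 and 9.88. The median log2 ratio was 0.22. These values describe 1 region of overlapping peaks that carry the 3′ UTR label, of which 1017 exonic bp were shared. Some of these peaks join several exonic parts, and the label is given to a peak as a whole.

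*Rbm15* (ENSMUSG00000048109, chromosome 3, minus strand) and its paralog *Rbm15b* (ENSMUSG00000074102, chromosome 9, minus strand) encode RNA-binding adaptors that bring the complex to U-rich sites, among them sites on *Xist*. They held the most strongly enriched writer peaks, and they were the writer genes with peaks in the 5′ UTR in both genotypes. The RefSeq promoter windows (GRCm38.p6, 250 bases before to 50 after each start) reach all or part of some of these 5′ UTR peaks. The consensus motif of m6A was searched there on both strands, as 5 bases that read A, G or T, then A or G, then A, then C, then A, C or T (18 forms). The sequences below give, 5′ to 3′ along the transcript, the motif in capitals with up to 12 bases on either side, for the matches on the transcript strand in the 5′ UTR peak found in WT mice alone (*Rbm15*) and in the most enriched 5′ UTR peak, found in both genotypes (*Rbm15b*).
*Rbm15* chr3:107333426-107333454: gaaaaaacgcctGAACTgatgtccagact
*Rbm15* chr3:107333414-107333442: gaactgatgtccAGACTtcccgatagtga
*Rbm15b* chr9:106887245-106887273: ccaaagctcgcaAGACAggccgcttcctc
*Rbm15b* chr9:106887170-106887198: aggcagcgagcgAAACTctcggcccgccc

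The 120 bp of the *Rbm15* peak chr3:107333404-107333523 held 2 matches on the transcript strand and 2 on the other, and 87.8% of all promoter windows, read over this length on the strand of the gene, held at least 1. The 256 bp of the *Rbm15b* WT peak that the window reaches held 2 and 3, beside 97.5% of all windows with at least 1. A match is therefore common in windows of these lengths. A motif in the window is not a mapped m6A site. The printed matches lie upstream of the RefSeq start that defines their window (107333289 in *Rbm15*, 106887075 in *Rbm15b*). Their place in a 5′ UTR rests on the deposited annotation of the peaks. In *Rbm15b* they lie outside the RefSeq gene, while the RefSeq span of *Rbm15* reaches to 107334460.

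*Rbm15* had 5 peaks in WT and 3 in *Tyrobp*-/- mice. Its main peak covered most of the large first exon, with a fold enrichment of 12 at WT chr3:107330201-107332536 and 10.8 at chr3:107330201-107332476 in *Tyrobp*-/- mice, a log2 ratio of -0.15. The weaker shared peaks were at WT chr3:107326049-107326259 in the 3′ UTR (2.89 against 3.18) and at WT chr3:107333015-107333254 in the 5′ UTR (2.93 against 3.71). The 2 peaks listed in WT mice alone had 120 bp each and little support from the caller. The one in the 5′ UTR, for which motifs are printed above, had a fold enrichment of 4.39 and a log10 p of -2.59. The one in the 3′ UTR, chr3:107325541-107325660, had 3.26 and a log10 p of -1.95.

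*Rbm15b* had the highest fold enrichments of all writer genes. In the separate lists its strongest WT peak also had the greatest gap between the genotypes. In the caller's comparison, given below, *Mettl14* was lower (-0.67) than *Rbm15b* (-0.32 and -0.23). Its peak labelled 3′ UTR had a fold enrichment of 36.1 at WT chr9:106884113-106886204, higher than 99.3% of WT peaks. At nearly the same place in *Tyrobp*-/- mice, chr9:106884054-106886174, it was 10.1, a log2 ratio of -1.84. The 3′ UTR label comes from a transcript, ENSMUST00000185707, that ends inside this peak. In WT mice the peak lies 1224 to 3315 bp from the 5′ end of a listed span of 6511 bp. The name 3′ UTR is therefore the deposited label and not the 3′ end of the gene. A 2-part peak nested in the same region, chr9:106884751-106885619 in both lists, had 11.9 against 8.89, a log2 ratio of -0.42. The 5′ UTR peak had 32.2 at WT chr9:106887070-106887428 and 24.8 at chr9:106887100-106887428 in *Tyrobp*-/- mice, a log2 ratio of -0.38. All *Rbm15b* peaks thus had lower values in *Tyrobp*-/- mice, but the size of the difference at the 3′ UTR depended on how the region was bounded. Between these peaks the WT list held 2 further peaks that carried the name of *Manf*, and the *Tyrobp*-/- list held none. They lay at chr9:106886323-106886562 (fold enrichment 3.42, log10 of the peak-calling p -10.6) and chr9:106886711-106886920 (11.7, log10 p -2.71). The deposited annotation of both places them in the single exon of an *Rbm15b* transcript, ENSMUST00000055843.

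**Figure D2:**
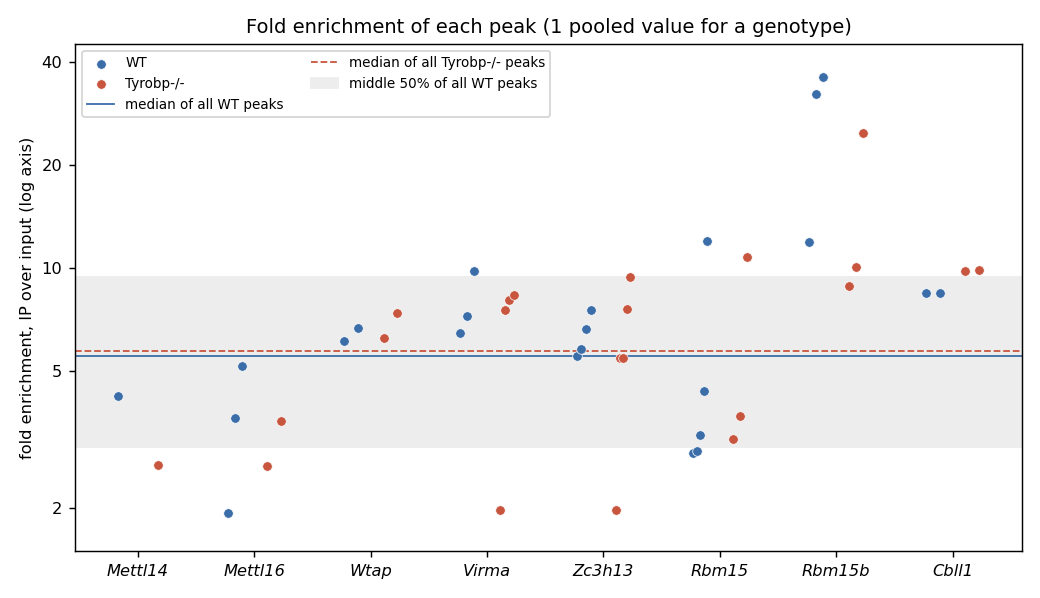
Fold enrichment of IP over input (log axis) of each peak of the 8 writer genes with a peak, WT in blue and *Tyrobp*-/- in red, 1 pooled value for a genotype and so no error bars; lines are the medians of all peaks of each genotype (5.54 and 5.72) and the grey band is the middle 50% of all WT peaks (3.02 to 9.43). The highest point of each genotype belongs to *Rbm15b*, and *Mettl14* and *Mettl16* lie below both medians.

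To ask whether m6A on writer transcripts differed between the genotypes, the log2 ratio of fold enrichments was taken at each WT peak with an overlapping *Tyrobp*-/- peak, averaging over partners where there were several. Over 20 writer peaks the median was -0.06 and the quartiles were -0.40 and 0.17. Without the *Rbm15b* peaks the median was 0.02, so its sign rested on this gene. Over all 26902 such peaks the median was 0.06 and the quartiles were -0.31 and 0.45. A ratio below 0 was seen in 11 of 20 (55.0%) writer peaks and in 45.5% of all peaks. The lowest ratio, -1.93 at the *Rbm15b* 3′ UTR peak (the mean over its 2 partners), was met or passed by 1.2% of all peaks, and the others lay between -0.96 and 0.51. With 1 pooled value for a genotype there is no spread between samples to set these differences against, and no test was made.

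By gene, the median log2 ratio was below 0 in *Mettl14* (-0.66), *Mettl16* (-0.50), *Rbm15b* (-0.38) and *Zc3h13* (-0.06). It was above 0 in *Cbll1* (0.22), *Virma* (0.16), *Rbm15* (0.14) and *Wtap* (0.09). In *Mettl14*, *Mettl16* and *Rbm15b* every shared peak was below 0, in *Wtap* and *Cbll1* every one was above 0, and *Virma*, *Zc3h13* and *Rbm15* had ratios of both signs. When the strongest WT peak alone was taken, the values of *Virma* and *Rbm15* turned negative (-0.23 and -0.15), that of *Rbm15b* went to -1.93 and that of *Zc3h13* to -0.96. The last is a mean over 2 partners, and the main partner alone gave 0.01.

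**Figure D3:**
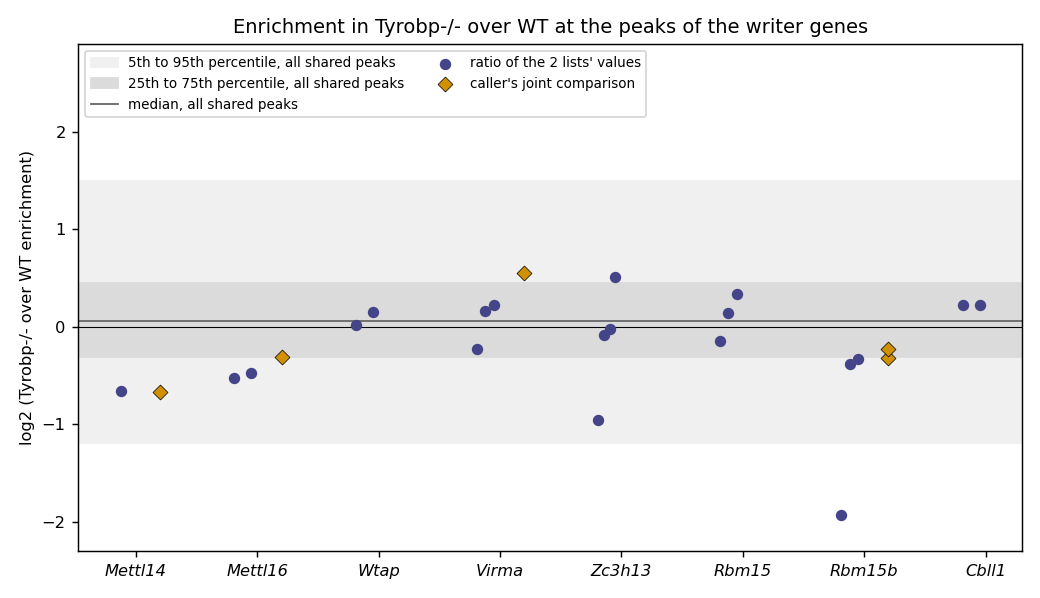
Log2 ratio of fold enrichment, *Tyrobp*-/- over WT, at each shared peak of the writer genes (circles), with the values of the caller's genotype comparison where it lists a peak (diamonds); bands give the 25th to 75th and the 5th to 95th percentile of all 26902 shared peaks and the grey line their median (0.06). The lowest circle, *Rbm15b* at -1.93, has diamonds of -0.32 and -0.23 at the same region.

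The strength of peak calling and the length of the peaks were also compared, where a WT peak and a *Tyrobp*-/- peak were each other's single partner. Of 15 such writer pairs, 13 (86.7%) had a weaker peak-calling p in *Tyrobp*-/- mice, against 54.0% of 17608 pairs over all genes. The exonic length was shorter in *Tyrobp*-/- mice in 10 of 15 (66.7%), against 41.3% over all genes. Many of the 15 pairs come from the same genes and are not independent of each other, and no test was made. Peak-calling p depends on the number of reads as well as on enrichment, and both *Wtap* peaks had a weaker p beside a higher fold enrichment in *Tyrobp*-/- mice. Reads of these transcripts in the input libraries were not analysed here, so their part in the p was not tested.

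The caller's own comparison of the genotypes gives, at each listed region, a log2 fold change of enrichment, *Tyrobp*-/- over WT, with a p-value. How these were computed is not given in the sources used here. The comparison listed 5 peaks of 4 writer genes, all annotated to 3′ UTRs. Of these, 4 were lower and 1 higher in *Tyrobp*-/- mice. No peak of *Wtap*, *Zc3h13*, *Rbm15* or *Cbll1* was listed. Regions of this comparison overlapped 4 of 23 WT writer peaks (17.4%), beside 15.4% of all WT peaks, so most WT peaks had no row. The rule by which peaks entered this table is not given in the sources used here. One p is listed for each region, with no values of single samples, so it cannot be set against the spread between samples of a genotype.

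The *Mettl14* peak chr3:123369254-123369613 had a log2 fold change of -0.67 (0.627-fold), with a caller's p of 7.24e-05 and an FDR of 0.000676. The *Mettl16* peak chr11:74817167-74817736 had -0.31 (0.807-fold, FDR 0.000158). The ratios of the listed enrichments at these peaks were -0.66 and -0.53. The *Virma* peak chr4:11549694-11549874 had 0.55 (1.47-fold, FDR 0.0257) and lies at the weak peak found in *Tyrobp*-/- mice alone. The *Rbm15b* peaks chr9:106884054-106886592 and chr9:106884751-106885619, which overlap and share reads, had -0.23 (0.85-fold, FDR 4.47e-10) and -0.32 (0.799-fold, FDR 1.20e-08).

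None of these 5 passed a fold change of at least 2 together with p below 0.05. At these thresholds 9.01% of the 5640 listed peaks were higher and 5.57% lower in *Tyrobp*-/- mice. Without the fold threshold, all 5 had p below 0.05, 1 higher (43.9% of all listed peaks) and 4 lower (26.1%). The same 1 and 4 passed an FDR below 0.05, beside 35.1% and 19.9% of all listed peaks. The 4 lower peaks come from 3 genes, *Mettl14*, *Mettl16* and *Rbm15b*, and the higher one from *Virma*.

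**Figure D4:**
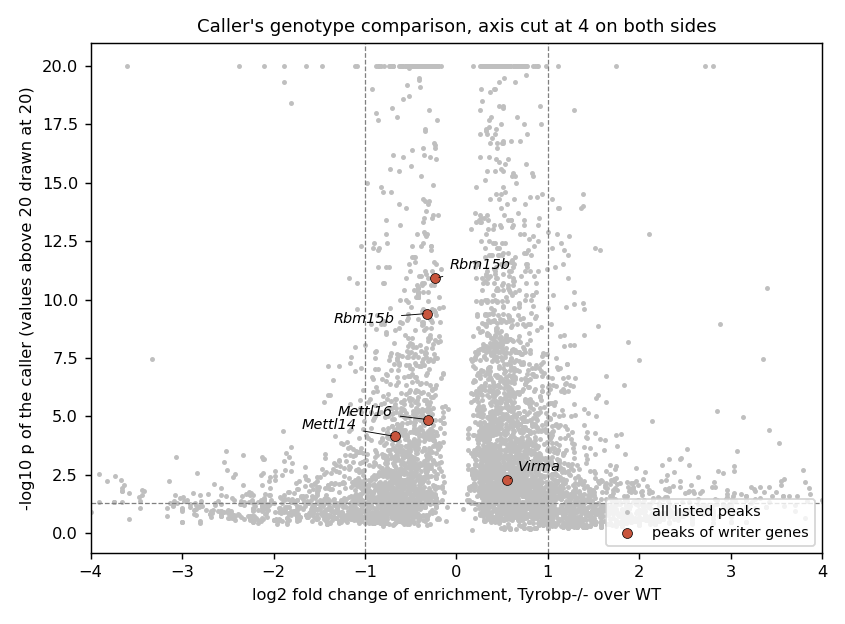
The caller's genotype comparison for the listed peaks (grey), with the log2 fold change of enrichment, *Tyrobp*-/- over WT, on the horizontal axis (cut at 4 on both sides) and -log10 p on the vertical axis (values above 20 drawn at 20); dashed lines mark a fold change of 2 and p of 0.05. The 5 peaks of writer genes (red) lie above the p line and between the fold change lines.

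At the *Rbm15b* peak labelled 3′ UTR both measures had the same sign and very different sizes, -1.84 from the separate lists and -0.23 from the caller's comparison. Over 2409 compared peaks with 1 partner in each list, the median absolute gap was 0.21 on the log2 scale and 9.71% had a gap over 1. The *Rbm15b* regions met more than 1 peak in each list and were not among these. How common such a gap is at nested peaks was therefore not measured. The compared region with -0.23 also reaches further than the listed peaks with -1.84. For *Mettl14* the gap was within 0.01 of 0. The *Rbm15b* value of -1.84 therefore rested on the separate lists alone.

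The other genes of the m6A pathway were counted in the same tables. Of 22 such genes, 15 had a peak in WT and 15 in *Tyrobp*-/- mice, and 10 had a row in the genotype comparison, of which 6 were higher and 0 lower at an FDR below 0.05 (beside 35.1% and 19.9% of all listed peaks). The erasers *Fto* and *Alkbh5*, demethylases of RNA, had peaks in both genotypes, and their log2 fold changes of 1.81 (FDR 0.537) and 0.45 (FDR 0.0631) did not pass. All 5 YTH readers, proteins that bind m6A directly, had peaks, and *Ythdf1* (0.43, FDR 0.0355) and *Ythdf2* (0.20, FDR 1.70e-06) passed. Of the other readers, *Hnrnpa2b1* (1.0, just under the fold threshold, FDR 7.24e-09), *Fmr1* (0.62, FDR 0.0138) and *Prrc2a* (0.35, FDR 0.00794) passed. *Mettl5*, the methyltransferase of 18S rRNA, was the 1 pathway gene past the fold threshold as well (1.05, FDR 3.16e-13). The separate lists do not show this direction, since under its name *Mettl5* had 1 peak in WT and 0 in *Tyrobp*-/- mice. *Mat2a*, which makes the methyl donor S-adenosylmethionine and is a target of METTL16, had 3 peaks in each genotype and no row in the comparison. The writer genes had 4 lower rows among their 5, and the other pathway genes had none at this FDR. The difference between these groups was not tested.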

How the data were processed

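Per the study's methods, the authors trimmed reads with fastp and aligned them to GRCm38 (Ensembl v96) with HISAT2. They then called peaks with exomePeak and placed them on transcripts with ChIPseeker. How replicates entered the caller is not given in the sources used here. The lists hold 1 value for each peak and genotype, read here as covering its 3 replicates together. Tool versions are not given in the sources used here. The deposited library table holds read counts before and after trimming and the percent of bases at Q20 and Q30. The peak lists deposited by the authors give a p-value (IP compared with input), its log10, the log10 of the FDR and a fold enrichment, the ratio of IP to input. In the genotype comparison the authors deposited a log2 fold change, a p-value and the log10 of the FDR as a score. These last values are the caller's output and were copied, not refitted.

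The members and gene lists were chosen with earlier results of these data known. All 9 members are described whatever their values. Other pathway genes are named for having or lacking a peak or for their row in the comparison. Peaks were taken by their deposited gene name, and peaks of both lists were paired when their spans overlapped by at least 1 bp. Ratios were taken as log2 of *Tyrobp*-/- over WT fold enrichment. Positions were checked against RefSeq genes of GRCm38.p6. Promoter sequences are from RefSeq. Sequences of the peaks outside the promoter windows were not used here. Groups came from the sample labels. Alternatives were a peak-calling FDR below 1e-05, a fold enrichment of at least 4, other rules for overlap and partners, and other thresholds of the comparison. Alternatives added after the data were seen were merged peaks, partners of the same gene name, leaving out *Rbm15b*, and an FDR below 0.05 without a fold threshold. The steps were tested on simulated data and run in Python 3.11.15 with numpy 2.4.6, pandas 2.3.3 and matplotlib 3.10.9.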

Additional observations from a re-analysis of the deposited data

How the results depend on the processing

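No paired analysis was possible because the peak lists give 1 value for each genotype and none for its 3 replicates, and for the same reason no replicate could be left out. The median log2 ratio over the writer peaks was -0.06 and turned to 0.02 without the *Rbm15b* peaks (chosen after seeing the data). It stayed between -0.09 and -0.02 under the other overlap, partner and peak-calling rules tried. With the strongest WT peak alone, the ratio turned from 0.16 to -0.23 in *Virma* and from 0.14 to -0.15 in *Rbm15*, and went from -0.06 to -0.96 in *Zc3h13* and from -0.38 to -1.93 in *Rbm15b*. The values of -0.96 and -1.93 are means over 2 *Tyrobp*-/- partners, and in *Zc3h13* the main partner alone gave 0.01. The count of writer peaks past the thresholds of the genotype comparison was 0 higher and 0 lower. With the fold threshold lowered to 1.5 it was 0 higher and 1 lower, and it was 1 higher and 4 lower without a fold threshold, both at p below 0.05 and at an FDR below 0.05 (the last chosen after seeing the data). The number of writer genes with a peak, of writer peaks (15 to 27 in a list) and of shared peaks moved by less than 1.5 times. At a fold enrichment of at least 4, however, 8 writer genes kept a peak in WT and 6 in *Tyrobp*-/- mice. The writer peaks then numbered 18 in WT and 15 in *Tyrobp*-/- mice. A peak has no replicate error and no known read depth, so a small ratio cannot be told from noise.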
